A study of Mus musculus with 10 samples.

Results

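The small nucleolar RNAs (snoRNAs) and small Cajal body RNAs (scaRNAs) are short, stable guide RNAs of the nucleus, and they are described here in mouse microglia with 2, 1 or 0 intact copies of Trem2. They were taken as all gene names that begin with Snora, Snord or Scarna and that had a value above 0 RPKM (reads scaled to gene length and library total) in at least 3 of the 10 libraries. Of 119 such names 104 met the rule, among 19983 gene names with a value in any library: 62 box C/D genes (Snord), 33 box H/ACA genes (Snora) and 9 Scarna genes. The members were thus chosen by the measured RPKM itself, so that a member is detected is no finding. The adult microglia came from C57BL/6 mice of 3 to 5 months and were captured with magnetic beads against CD11b, a surface integrin of myeloid cells. The wild-type group (TREM2+/+) had 4 libraries, numbered 1, 4, 7 and 10, from 2 female and 2 male sources. The heterozygous group (TREM2+/-) had 3, numbered 5, 8 and 11 (2 female, 1 male), and the knockout group (TREM2-/-) had 3, numbered 6, 9 and 12 (1 female, 2 male). The labels name no treatment, no promoter or Cre, and leave open if a library was 1 mouse or a pool of mice, so that each p reflects only how far these libraries scatter.

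Box C/D snoRNAs guide 2′-O-methylation and box H/ACA snoRNAs guide pseudouridylation, mostly of ribosomal RNA, by base pairing with the target. ScaRNAs carry either or both kinds of box and guide the same changes on spliceosomal RNAs in the Cajal body. Most mammalian members lie in introns of host genes, many of which encode ribosomal proteins or translation factors or are noncoding RNAs with no other product, and are cut out of the spliced intron. Some (Snord22, Snord17) are far longer than most box C/D RNAs.

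The members on which the values below rest most are shown as their GENCODE M21 transcripts (GRCm38, the assembly that mm10 denotes), written 5′ to 3′ on the RNA's strand. Capitals mark the boxes where the searched letters occur: TGATGA with a CTGA downstream for box C and box D, and ACA 3 bases before the 3′ end for box H/ACA. A sequence without capitals does not contain these exact letters. The first 4 box H/ACA or box C/D RNAs below had the highest levels or the most reads, at chr14:75847905-75848034 (plus strand, intron of Tpt1) for Snora31, chr12:111540941-111541067 (plus, Eif5) for Snora28, chr7:110046364-110046547 (plus, intron of Ipo7) for Snora23 and chr10:23785750-23785823 (minus, Rps12) for Snord100.
Snora31: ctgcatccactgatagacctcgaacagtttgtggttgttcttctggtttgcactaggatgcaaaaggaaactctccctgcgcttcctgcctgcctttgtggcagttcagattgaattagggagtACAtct
Snora28: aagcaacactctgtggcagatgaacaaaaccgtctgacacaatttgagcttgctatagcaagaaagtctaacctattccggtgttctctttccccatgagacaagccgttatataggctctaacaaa
Snora23: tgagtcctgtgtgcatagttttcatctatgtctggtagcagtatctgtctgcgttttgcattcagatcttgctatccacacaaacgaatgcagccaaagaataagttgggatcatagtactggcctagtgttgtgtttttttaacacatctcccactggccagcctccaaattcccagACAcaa
Snord100: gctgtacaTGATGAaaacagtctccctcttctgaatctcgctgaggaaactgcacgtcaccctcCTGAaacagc

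Snord65 (chr11:62604515-62604586, plus, intron of the noncoding gene 2410006H16Rik) is shown as a short box C/D RNA with both boxes near its ends. Snord22 (chr19:8725866-8725991, plus, overlapping an exon of the noncoding gene Snhg1) is shown because its level varied most between knockout libraries among the 8 members with the most reads.
Snord65: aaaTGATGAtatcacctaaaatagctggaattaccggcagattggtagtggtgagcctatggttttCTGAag
Snord22: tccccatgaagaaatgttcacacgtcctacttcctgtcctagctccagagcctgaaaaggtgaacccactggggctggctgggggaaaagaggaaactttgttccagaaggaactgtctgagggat

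Scarna3a (chr1:159340283-159340422, plus, intron of Cop1) is shown beside its near copy Scarna3b (chr12:80391613-80391751, minus, intron of Dcaf5), because the first had the smallest p of the family in both comparisons with wild type. Aligned end to end, the pair had 120 identical bases in 140 columns (85.7%).
Scarna3a: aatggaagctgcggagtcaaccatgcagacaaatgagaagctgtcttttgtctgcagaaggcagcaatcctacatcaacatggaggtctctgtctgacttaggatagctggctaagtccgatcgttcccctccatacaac
Scarna3b: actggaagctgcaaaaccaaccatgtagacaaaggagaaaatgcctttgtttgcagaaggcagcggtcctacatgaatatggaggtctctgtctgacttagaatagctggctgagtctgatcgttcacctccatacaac

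The boxes followed the names, which describes the annotation and is no finding of these libraries. TGATGA with a downstream CTGA was in 40 of the 61 box C/D members with a sequence (65.6%) and in 0 of the 31 box H/ACA members. ACA 3 bases before the end was in 25 of 31 box H/ACA members (80.6%) and in 0 of 61 box C/D members. Only the RNA's own strand was searched. For comparison, the C/D letters were in 0.498% of 1005 RefSeq miRNA hairpins and 0.311% of 27025 windows of 82 bases upstream of RefSeq gene starts, and the ACA position was filled in 1.59% of the hairpins and 1.77% of windows of 130 bases. The scaRNAs were mixed: 5 of 9 held the C/D letters and 2 of 9 the ACA.

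Whole reads could be recovered from the deposited RPKM, and they show how thin the evidence is for most members. The libraries held 17.3 M to 44.2 M (megareads) recovered reads. The 104 members together had 42185 reads over the 10 libraries, from 5 to 5295 each with a median of 122, and 34 members had fewer than 50. There were 11 members with at least 1000 reads, and the top 8 held 50.8% of all member reads. The length used for RPKM was 28 to 275 bases with a median of 82.5, against a median of 2508 over all genes. A single read was therefore worth between 0.0806 and 2.03 RPKM, depending on the member and library.

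Just inside the rule, Scarna10 (9 reads) and Snora16a (6 reads) were above 0 in 3 libraries, and 7 members in 4. Just outside, Snord90 was above 0 in 1 library with 2 reads, and no name was above 0 in exactly 2. The other 14 names were listed at 0 in every library: Snora19, Snora24, Snora26, Snord116, Snord116l1, Snord116l2, Snord14a, Snord14c, Snord14d, Snord1a, Snord1c, Snord45c, Snord64 and Snord7. A count of 0 in 271.8 M reads allows up to 3 reads, or 0.011 per megaread, counting error only. Of the 15 names outside the rule, 14 had a matched location. Of these, 5 overlap a host exon, 4 only an exon of a retained-intron transcript, and 5 lie in a host intron. If reads over such exons were assigned to the host or dropped was not tested. A listed 0 therefore does not show that the RNA was absent. The Snord116 names belong to an imprinted cluster known for its expression in neurons. Between these extremes, 64 members were above 0 in all 10 libraries, and a library held 81 (wild type 4) to 99 of the 104.

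The microglial markers P2ry12 and Tmem119 were above 0 in every library. Trem2 itself averaged 191.5 ± 31.1 RPKM (SD) in the 4 wild-type libraries, 93.9 ± 9.98 in the 3 heterozygous and 24.5 ± 3.52 in the 3 knockout libraries. Knockout library 6 stood apart. Its 11 neutrophil markers summed to 2297 RPKM, against 372 and 381 in knockouts 9 and 12, 144 to 358 in heterozygotes and 104 to 224 in wild type. Its 7 monocyte markers summed to 113 RPKM, against 39.0 and 41.9 in the other knockouts, 26.6 to 39.0 in heterozygotes and 22.4 to 37.3 in wild type. Both sums were thus above every wild-type library in all 3 knockouts, and the neutrophil sum above every heterozygous one too. Of the neutrophil list 10 genes and of the monocyte list 7 were above 0 in all libraries, and 3 haemoglobin genes of the erythroid list were at 0. The part of such cells in the results below was not tested. Several fold changes below are also given without library 6, though not every one that it moves. In bulk RNA, fewer cells of a type and less RNA per cell cannot be told apart.

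The summed output of the family was nearly the same in the 3 genotypes. Member reads per megaread of the library were 150, 150, 141 and 169 in wild type (libraries 1, 4, 7 and 10), with a mean of 152 ± 12.0. They were 148, 145 and 176 in heterozygotes (5, 8 and 11; mean 156 ± 16.9) and 137, 148 and 155 in knockouts (6, 9 and 12; mean 147 ± 9.25, or 152 without library 6). The groups overlapped throughout. No p is given for these sums, because the members were chosen with results known.

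The box H/ACA RNAs supplied 51.3% of the member reads, the box C/D RNAs 44.3% and the scaRNAs 4.44%. The box C/D sum was 67.0 ± 3.79 reads per megaread in wild type, 67.9 ± 7.70 in heterozygotes and 66.9 ± 7.23 in knockouts. The box H/ACA sum was 77.6 ± 9.52, 82.2 ± 9.38 and 73.2 ± 4.88 in the same order. The scaRNA sum was 7.87 ± 1.58, 6.31 ± 0.701 and 6.82 ± 0.944. Per length the order of the first pair was reversed, with a median length of 119 bases for box H/ACA against 67 for box C/D. The median of the members' mean RPKM was 5.88 for box C/D, 4.32 for box H/ACA and 1.47 for scaRNAs.

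**Figure D1:**
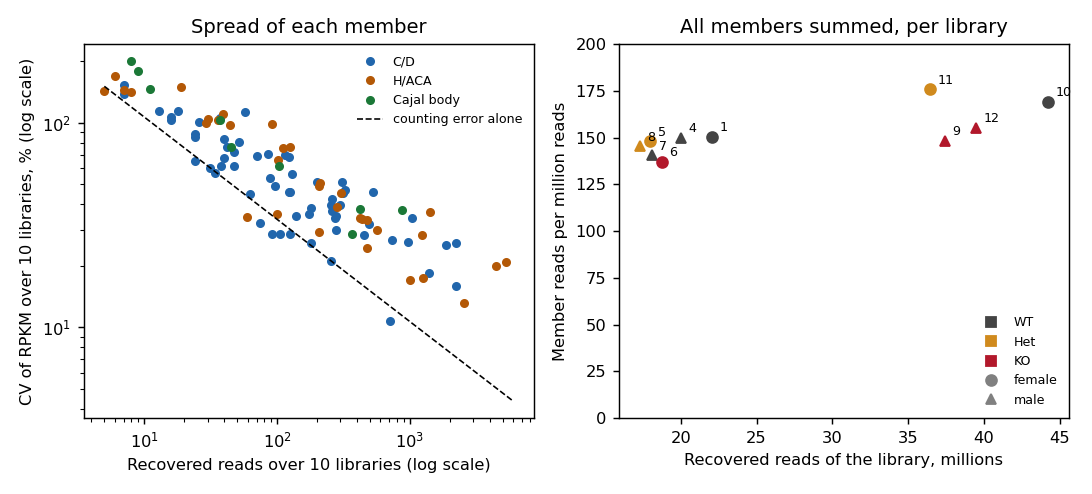
Left, the coefficient of variation (CV, SD as a percentage of the mean) of each member's RPKM over the 10 libraries against its recovered reads, both on log axes, coloured by class, with a dashed line for counting error alone. Right, the reads of all members per megaread of the library against its depth, by genotype (colour) and sex (shape), with library numbers. Members of few reads lie at a CV near or above 100%, and the sums lie between 137 and 176 per megaread with genotypes interleaved.

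Sequencing was deeper than 30 M reads in 4 libraries (wild type 10, heterozygous 11, knockout 9 and 12), and depth is not balanced over genotypes. Within these 4, the sum was 169 in wild type, 176 in the heterozygote and 148 and 155 in knockouts. Within the 6 shallower libraries it was 141 to 150 in wild type, 145 and 148 in heterozygotes and 137 in the knockout. The knockout libraries were thus the lowest within each depth class, by less than the spread of the sums over all libraries in the shallower class, and the deeper class has 1 wild-type library only. The part of depth in these values was not tested.

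For single members, knockout, heterozygous and wild-type libraries were compared with limma on log2(RPKM + 0.5) over 13621 genes, of which 100 were members (4 had too few values to pass the filter of 0.5 RPKM in 3 libraries). Since 1 read already reaches 0.5 RPKM for 72 of the members in the smallest library, passing says little about a member. At an adjusted p under 0.05, no member rose and no member fell in any of the 3 comparisons. Over all genes 0.00734% were called in knockout against wild type (the 1 gene was Trem2), 0% in heterozygous against wild type and 0.00734% in knockout against heterozygous. The lowest adjusted p of a member was 0.913 in the first comparison. Trem2 itself, at a log2 fold change of -1.02 (SE 0.14) in heterozygous against wild type, was not called there (adjusted p = 0.238 by limma). The absence of a call therefore does not show that a member was unchanged. Both comparisons with wild type share the 4 wild-type libraries.

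At an unadjusted p under 0.05, limma had 12 members in knockout against wild type, 9 in heterozygous against wild type and 10 in knockout against heterozygous, of 100 tested. The share over all genes was 5.13%, 2.75% and 3.35%. By direction, 5 members were higher and 7 lower in knockout against wild type (3.32% and 1.81% of all genes), 3 higher and 6 lower in heterozygous against wild type (1.4% and 1.35%), and 7 higher and 3 lower in knockout against heterozygous (2.2% and 1.15%). In limma-voom on the recovered reads, each value is weighted by the precision expected at its read count. The members at this level were then 5, 3 and 3 of 100, near the 5.12%, 2.44% and 2.98% of all genes, and again 0 passed adjustment. The median log2 fold change of the members was 0.06 in knockout against wild type (0.03 over all genes tested), 0.00 in heterozygous against wild type (0.00 over all genes) and -0.00 in knockout against heterozygous (0.03 over all genes). Without knockout library 6 the members' medians against wild type and heterozygote were 0.28 and 0.29, with 0.04 over all genes in both, and 19 and 16 of 99 members had an unadjusted p under 0.05, against 6.42% and 3.65% of all genes. Of those 19, 15 were higher and 4 lower in the knockout (4.56% and 1.86% of all genes). Knockouts 9 and 12, which remain, were both male and both among the deeper libraries. Loss of library 6 thus also changes the depth and sex of the knockout group, and the part of each in this shift was not tested.

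**Figure D2:**
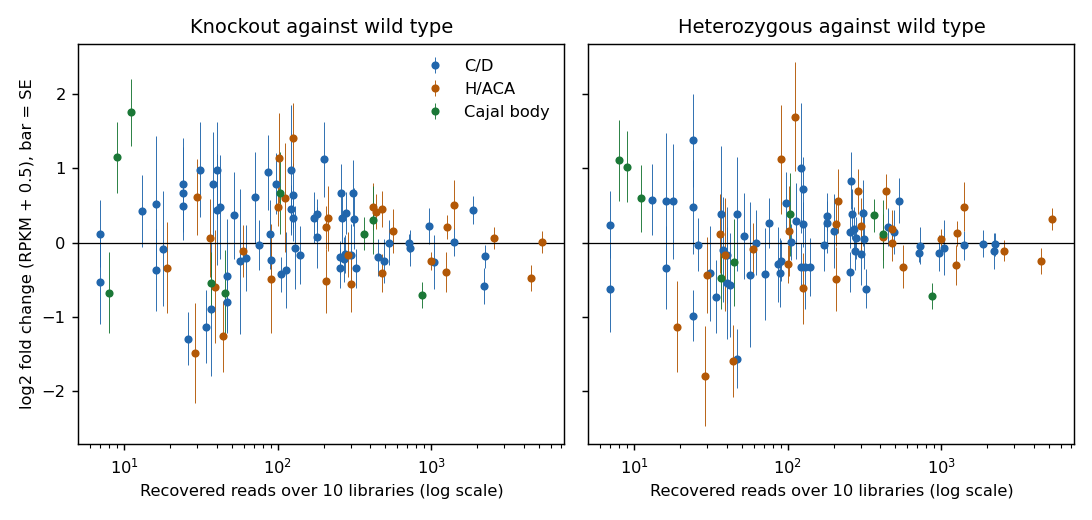
The log2 fold change of each tested member (RPKM + 0.5; bar, standard error) in knockout (left) and heterozygous (right) against wild type, plotted against its recovered reads on a log axis and coloured by class. The points close in on 0 as reads increase, and the median standard error in the left plot was 0.31 for the 70 members with at least 50 reads and 0.58 for the other 30.

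Among the most-read members, Snora31, a box H/ACA RNA known to guide a pseudouridine of the large ribosomal RNA, had the highest level. It stood at 137, 157, 126 and 213 RPKM in wild type, at 232, 177 and 195 in heterozygotes and at 171, 149 and 134 in knockouts. Wild type overlapped both other groups, heterozygote 5 was the highest of the 10, and the heterozygotes lay above all 3 knockouts. Of the 70 members with at least 50 reads, 3 did not overlap in knockout against heterozygous. The share over all genes was not computed for that comparison, so this separation is only described. The fitted log2 fold change was 0.00 (SE 0.15) in knockout against wild type, 0.32 (SE 0.15) in heterozygous against wild type and -0.32 (SE 0.16) in knockout against heterozygous, none of which passed the test.

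Snora28, also box H/ACA and hosted by the translation factor gene Eif5, was at 165, 141, 130 and 156 RPKM in wild type, 101, 122 and 153 in heterozygotes and 83.9, 128 and 112 in knockouts. Of the 70 members with at least 50 reads, 1 had knockout and wild-type libraries that did not overlap, and it was Snora28 (4.57% of all tested genes with that many reads did not overlap). In knockout against wild type it stood at -0.48 on the log2 scale (SE 0.17, adjusted p = 0.942 by limma), and -0.22 without knockout library 6, its lowest. The host Eif5 was at 286 ± 23.5 RPKM in wild type, 275 ± 8.82 in heterozygotes and 239.9 ± 20.1 in knockouts. Because host and guide share the transcript they are cut from, the values of the pair are not independent.

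Snord22, a long box C/D RNA in Snhg1, was even in wild type (65.9, 61.6, 73.5 and 73.2 RPKM) and scattered in the other groups. Heterozygotes had 43.8, 74.7 and 64.7 RPKM, and knockouts 26.7 (library 6), 54.5 and 76.2. The knockout group thus held both the lowest and the highest library of the series. Against wild type the log2 fold change was -0.58 (SE 0.24, adjusted p = 0.969 by limma), and -0.17 without library 6. Snhg1 was at 129.5 ± 8.46, 125 ± 16.1 and 116 ± 16.5 RPKM in wild type, heterozygotes and knockouts.

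Snord17, a box C/D RNA hosted by the sorting nexin gene Snx5, had 31.1, 28.5, 23.3 and 25.6 RPKM in wild type, 22.8, 24.6 and 37.5 in heterozygotes and 46.4, 26.5 and 36.1 in knockouts. Here library 6 was the highest of the 10. Its log2 fold change of 0.44 (SE 0.18, adjusted p = 0.969 by limma) in knockout against wild type was 0.28 without it.

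The other 4 of the top 8 showed no separation of genotypes. Snord100, from the ribosomal protein gene Rps12, was at 126 ± 17.4 RPKM in wild type, 126 ± 25.4 in heterozygotes and 109 ± 16.4 in knockouts. Snora23, from the importin gene Ipo7, was the steadiest of them with 50.2 ± 5.6, 47.1 ± 8.76 and 52.1 ± 7.14 RPKM. Snord65 was at 86.9 ± 19.2, 85.8 ± 23.2 and 85.5 ± 6.23 RPKM. The X-linked Snora70, from Rpl10, was at 29.4 ± 14.5, 41.2 ± 15.4 and 37.9 ± 8.66 RPKM, with a log2 fold change of 0.51 (SE 0.33) in knockout against wild type, 0.24 without wild-type library 7 and 1.01 without knockout library 6.

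**Figure D3:**
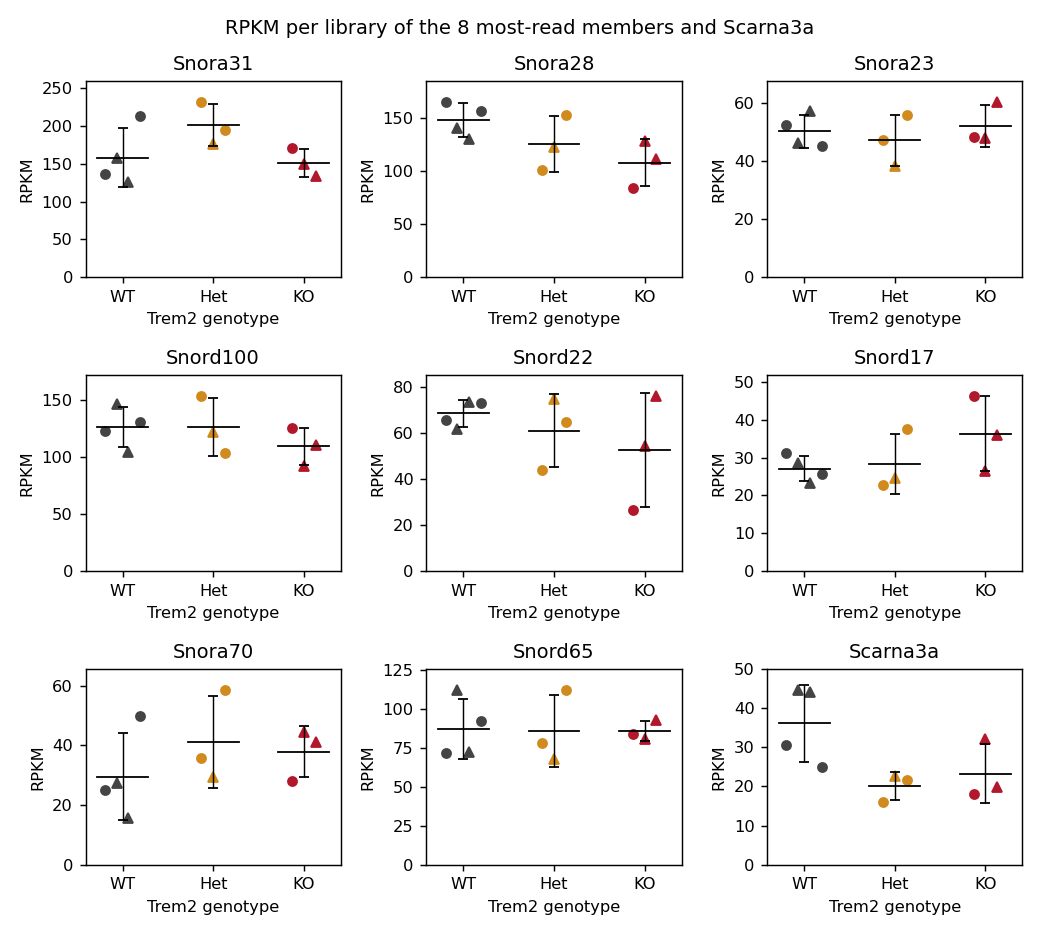
RPKM in each library for the 8 members with the most reads and for Scarna3a, by genotype (circles, female; triangles, male), with the mean as a horizontal line and ±1 SD as a bar (n = 4, 3 and 3). The genotypes overlap in most plots, and the Scarna3a heterozygotes, at 16.0 to 22.6 RPKM, lie below all wild-type libraries.

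Of the scaRNAs, Scarna3a had the smallest p of the family in knockout and in heterozygous against wild type. It was at 30.5, 44.6, 44.1 and 25.0 RPKM in wild type, 16.0, 22.6 and 21.7 in heterozygotes and 18, 32.0 and 19.8 in knockouts. Heterozygotes lay below every wild-type library, and knockout library 9 lay within the wild-type range. Among the wild types, the females (1 and 10) were the lower pair, and the fit with a sex term gave a log2 fold change of -0.71 (SE 0.17, adjusted p = 0.913 by limma) in knockout and -0.72 (SE 0.17, adjusted p = 1.0) in heterozygotes. Over the single libraries left out, the first ranged from -0.87 to -0.53 and the second from -0.86 to -0.59.

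The near copy Scarna3b did not share this pattern in its values: 12.2, 8.66, 10.9 and 6.62 RPKM in wild type, 7.85, 16.9 and 11.5 in heterozygotes and 7.93, 13.3 and 11.8 in knockouts. Its log2 fold change was 0.12 (SE 0.23) in knockout and 0.37 (SE 0.23) in heterozygous against wild type. Without library 6 the Scarna3b knockout mean was 12.6 RPKM, against 9.59 in wild type, and the fold change was not recomputed. The difference between the pair was not tested. Cop1, the ubiquitin ligase gene that hosts Scarna3a (listed under its older name Rfwd2), was at 8.22 ± 0.553 RPKM in wild type, 7.96 ± 0.670 in heterozygotes and 8.65 ± 1.53 in knockouts, below Scarna3a in all 10 libraries.

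Scarna9, in an intron of the centrosomal protein gene Cep295, had the highest mean RPKM of the class, 37.3. That rank depends on the length used: Scarna9 had 418 reads on 42 bases (70 in GENCODE). Scarna3a had 874 reads on 118 bases (140 in GENCODE). Scarna9 ranged from 11.6 RPKM in wild type 1 to 60.4 in knockout 6. Its means were 36.0 ± 17.4, 34.9 ± 11.1 and 41.5 ± 17.1 RPKM in wild type, heterozygotes and knockouts. Without library 6 the knockout mean was 32.0 RPKM, below that of wild type. The other 6 scaRNAs had few reads. Scarna6 (104 reads), Scarna8 (45) and Scarna13 (37) had mean levels of 1.63, 1.47 and 0.409 RPKM.

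Scarna17 (11 reads) was listed at 0 in all 4 wild-type libraries and in heterozygotes 5 and 8, and it had 3 reads in heterozygote 11 and 1, 5 and 2 reads in knockouts 6, 9 and 12. Scarna10 (9 reads) was also at 0 in wild type and had 2 and 3 reads in heterozygotes 5 and 11 and 4 in knockout 6. Scarna2 (8 reads) went the other way: it was at 0 in the 3 knockouts, with 1 read each in wild types 4 and 10 and 4 and 2 in heterozygotes 8 and 11. At this depth such differences rest on single reads. The length used for RPKM was 61 bases for Scarna2 and 71 for Scarna10. Their GENCODE transcripts hold 385 and 296 different stretches of 30 bases, so the length used is far shorter than the transcript. Few reads therefore do not show that these RNAs were scarce. Of the stretches of 30 bases in Scarna17, 82% are also found in 1 other annotated small RNA gene.

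In heterozygous against wild type, the members with at least 50 reads that came next by p after Scarna3a were Snora44, Snord72, Snora64 and Snora61, none of them past adjustment. Snora44 and Snora61 overlap exons of the same noncoding gene, Snhg12. Snora44 was at 9.48, 8.34, 11.1 and 13.5 RPKM in wild type and 14.3, 24.7 and 14.3 in heterozygotes, with 18.1, 12.6 and 12.1 in knockouts. Snora61 was at 17.2, 7.08, 15.7 and 19.3 in wild type, 20.1, 28.4 and 23.4 in heterozygotes and 15.0, 7.61 and 14.4 in knockouts. Both heterozygous groups lay above wild type without overlap, as did that of Snora64; with Scarna3a, which lay below, they make 4 of 70 members (all genes: 4.57%). In both, library 8 was the highest.

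The log2 fold change of Snora44 was 0.69 (SE 0.23), or 0.26 without heterozygous library 8. That of Snora61 was 0.69 (SE 0.30), or 0.30 without library 8 and 0.44 without wild-type library 4, and in knockout against heterozygous it was -0.85 (SE 0.33), or -0.41 without library 8. Snhg12 was at 51.2 ± 4.82 RPKM in wild type, 63.0 ± 10.0 in heterozygotes and 57.8 ± 10.7 in knockouts.

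Snora64, from the ribosomal protein gene Rps2, rests on 111 reads: 3.03, 0, 1.39 and 2.46 RPKM in wild type, 3.24, 7.76 and 5.29 in heterozygotes and 0.443, 5.83 and 2.98 in knockouts. In heterozygotes the log2 fold change was 1.69 (SE 0.73), or 1.06 without wild-type library 4, the one at 0. Snord72, from Rpl37, had 16.3, 44.7, 21.7 and 16.6 RPKM in wild type, with library 4 the highest, and 11.7, 13.2 and 17.0 in heterozygotes, so the groups overlapped. Its log2 fold change was -0.62 (SE 0.26), or -0.37 without that library and -0.34 without heterozygous library 8.

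Snora2b, in the chromatin regulator gene Kansl2, had the smallest p among members of at least 50 reads in knockout against heterozygous. It had 7, 1, 3 and 35 reads in wild type (2.77, 0.436, 1.45 and 6.93 RPKM), 2, 1 and 20 in heterozygotes (0.966, 0.506 and 4.81 RPKM) and 16, 24 and 16 in knockouts (7.40, 5.62 and 3.55 RPKM). In wild type and heterozygotes the deeply sequenced libraries 10 and 11 were the highest, and both overlapped the knockouts. The log2 fold change in knockouts was 1.40 (SE 0.47) against wild type and 2.02 (SE 0.52, adjusted p = 0.999 by limma) against heterozygotes. With a pseudocount of 2 these were 0.91 and 1.29, and the first was 0.94 with a term for the deeper libraries.

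Snora7a, from Rpl32, was at 2.44 ± 0.812 RPKM in wild type, 1.97 ± 0.606 in heterozygotes and 3.44 ± 0.902 in knockouts. Its log2 fold change in knockout against heterozygous was 0.77 (SE 0.28), and 1.31 without knockout library 6. It rests on 100 reads.

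The level of a member was only loosely tied to that of its host gene. By the annotation, 54 members lie in a host intron, 31 overlap only an exon of a retained-intron transcript and 11 overlap an exon of another host transcript. No host on the same strand was found for 5, and 3 were not matched. For 93 members, 72 host genes had a value in the files (6 members through an older host symbol). The member was at a median of 24.4% of its host's RPKM, and 14 members had a higher mean than their host. Snora31 stood at 646% of Tpt1, Snord100 at 549.6% of Rps12, Snord4a at 451% of Rpl23a, Scarna3a at 332% of Cop1 and Snora23 at 229% of Ipo7, each above the host in 10 of 10 libraries.

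Across members, Spearman's rho of member and host mean RPKM was 0.43 (93 members, the same 10 libraries). By type of host it was -0.02 for the 30 members in ribosomal protein genes, 0.50 for the 46 in other protein-coding genes and 0.69 for the 17 in noncoding genes. These are descriptions, since members of 1 host share its value. No source used here says if reads of the host transcript over a member were counted for the member, the host, both or neither. Ribosomal protein genes also have many near-identical copies, so their levels are uncertain.

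**Figure D4:**
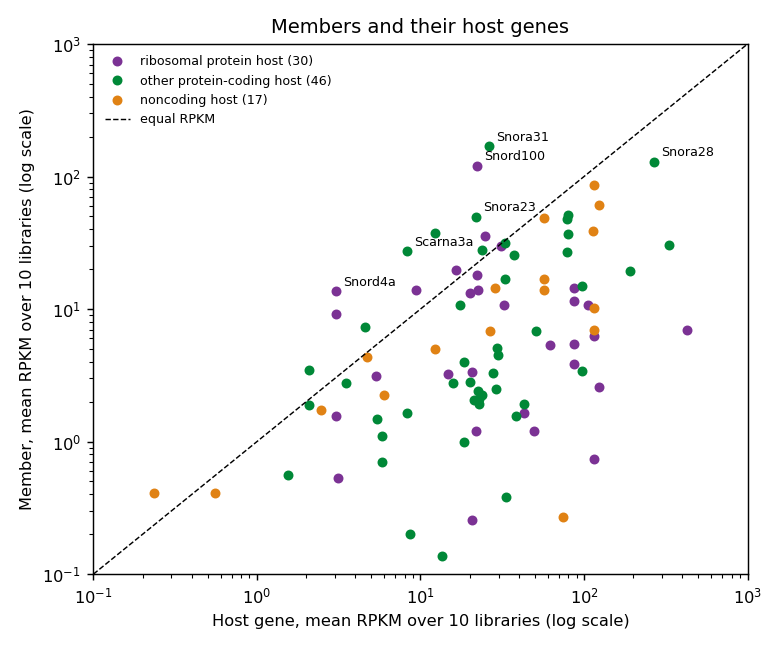
Mean RPKM of 93 members against the mean RPKM of their host genes over 10 libraries, both on log axes, coloured by type of host, with a dashed line of equal RPKM. Members of ribosomal protein hosts spread from under 1 RPKM to the 121 RPKM of Snord100, and 14 members lie above the line.

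Members cut from 1 host had unequal levels. Of the 16 hosts with at least 2 members, the noncoding 2410006H16Rik carried Snord65 at a mean of 86.2 RPKM and Snord49b at 6.94, a ratio of 12.4. Nop56, which encodes a core box C/D protein, carried Snord57 and Snord110 at a ratio of 12.4, and Rps3 carried Snord15b and Snord15a at a ratio of 8.51. Rpl13a held 4 members with a ratio of 3.78 between Snord34 and Snord33, and Snhg12 held 3 with a ratio of 3.52 between Snord99 and Snora44. In each of these pairs the first-named member was the higher in 10 of 10 libraries. By contrast, Snord11 and Snord70 of Nop58 differed by a ratio of 1.10, with the first higher in 4 of 10.

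The relative spread of a member over libraries narrowed as its reads increased. An index of dispersion (variance over that expected from counting, where 1 means counting error alone) had a median of 2.03 for the 34 members with 1 to 49 reads, close to 1.82 for other genes of that range. It was 2.29 for the 27 members with 50 to 199 reads (other genes 5.24), 3.84 for the 32 with 200 to 999 (other genes 7.03) and 9.78 for the 11 with at least 1000 (other genes 10.6). The median CV in these ranges fell from 103% through 48.9% and 34.5% to 20.9%. Snora31 had the highest index, 22.7, and Snora70 had 15.3.

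The proteins that bind these RNAs gave no call either. Of the box C/D core, 4 genes were in the files and tested, and 0 rose or fell in any comparison by limma. Nop56 was at 24.2 ± 2.18 RPKM in wild type, 25.0 ± 1.49 in heterozygotes and 22.5 ± 1.96 in knockouts, and Fbl, the methyltransferase fibrillarin, at 5.05 ± 0.774, 6.01 ± 1.36 and 4.65 ± 1.28. At an unadjusted p under 0.05, 1 of the 4 (Nhp2l1) was higher in both comparisons with wild type (all genes, higher: 3.32% and 1.4%). Of the box H/ACA core, 4 of 4 genes were tested and 0 had such a p; Dkc1, the pseudouridine synthase dyskerin, was at 17.5 ± 1.63, 17.8 ± 2.51 and 18.3 ± 2.95 RPKM.

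Of 16 names for assembly factors and Cajal body proteins 15 were tested, with 0 at an unadjusted p under 0.05 in any comparison. Tgs1, the enzyme that caps some of these RNAs, was at 47.3 ± 3.63, 41.8 ± 5.36 and 42.4 ± 7.02 RPKM. Of 17 noncoding host genes tested, 0 passed adjustment, and 1, 2 and 1 had an unadjusted p under 0.05 in the comparisons in the order above, where all genes had 5.13%, 2.75% and 3.35%. Gas5, a host of many box C/D RNAs, was at 125 ± 15.6, 109 ± 12.8 and 103 ± 14.3 RPKM. Of 6 other small structured RNAs tested, 0 passed adjustment. Rnu11, a part of the minor spliceosome, was at 17.1 ± 3.10, 16.7 ± 4.97 and 26.3 ± 7.01 RPKM, and Rnu12, its partner, at 9.42 ± 1.79, 11.1 ± 1.61 and 12.4 ± 1.45, both with an unadjusted p under 0.05 in knockout against wild type, where 5.13% of all genes had one.

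The assignment of reads and the lengths used limit these values in many members. For 98 of 104 members the length behind the RPKM equals the RefSeq length, and Snord118 (44 bases against 137) is the widest exception. In 86 of the 101 members matched in GENCODE it is shorter than the GENCODE length, so an order of members by RPKM depends on the annotation. Of 101 members with a sequence, 24 share at least 1 stretch of 30 bases with another annotated snoRNA or scaRNA gene, and in 6 (Scarna17, Snora30, Snora5c, Snora65, Snora81 and Snord58b) over 50% of such stretches are shared, so their levels are uncertain. The labels name a column kit for total RNA and no small-RNA step, and how fully RNAs of this length were recovered was not tested. No source used here says whether counting used strand, so reads of a member, its host's unspliced RNA and any antisense RNA cannot be told apart.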

How the data were processed

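RNA of 10 microglia libraries was sequenced (Ovation RNA-seq system v2, Illumina HiSeq4000, per the labels' protocols). The deposited values are RPKM computed by the authors. The submitters' processing notes name STAR, HTSeq, edgeR, limma and the build mm10; no source used here gives their versions or the annotation. Of 24060 names in each file, 27 turned into dates and 4 repeated names were left out. Whole reads were recovered for 19983 of 19983 genes with a value (100%, within 0.0005 reads or a relative 3e-07).

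RPKM values were analysed as log2(RPKM + 0.5) with limma 3.58.1 (R 4.3.3; limma-trend, genotype and sex, two-sided, Benjamini-Hochberg over 13621 genes with at least 0.5 RPKM in 3 libraries). The script was tested on simulated data. The library numbers are not shared between genotypes, so no pairing was fitted. Alternatives were other pseudocounts, filters, TMM scaling, no sex term, limma-voom, a depth term (added after the depths were seen) and leaving out each library.

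The members, lists and tests were chosen with earlier results of these data known. Named were the 8 members with most reads, the 5 (knockout against heterozygous: 3) of smallest p with at least 50 reads, all Scarna genes and the 3 highest genes of each list; others were picked after their values were seen. Sequences and coordinates are from GENCODE M21, comparison sequences and lengths from RefSeq (GRCm38), and 101 of 104 members matched GENCODE. The result of 1 marker is not reported here.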

Additional observations from a re-analysis of the deposited data

How the results depend on the processing

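No member was called under any of the 19 settings run (lowest adjusted p 0.252). The members' median log2 fold change, leaving out 1 library at a time, ranged from -0.012 to 0.28 in knockout against wild type, from -0.086 to 0.094 in heterozygous against wild type and from -0.093 to 0.29 in knockout against heterozygous; the upper ends of the first and last were without knockout library 6, and the cause was not tested. Members at an unadjusted p under 0.05, 12, 9 and 10 in these comparisons, of 100 tested (5.13%, 2.75% and 3.35% of all genes), were 7, 6 and 7 of 104 with no filter (all genes 4.98%, 3.39% and 4.10%) and 8, 7 and 5 of 85 with at least 30 reads (5.23%, 3.13% and 3.78%). They were 5, 3 and 3 of 100 with limma-voom (5.12%, 2.44% and 2.98%), 7, 12 and 9 with no sex term (4.02%, 3.24% and 2.73%) and 17, 14 and 15 with the depth term (5.75%, 3.06% and 3.85%). Leaving out knockout library 12 gave 7 (all genes 4.16%) and library 6 gave 19 (6.42%) in the first. Leaving out wild-type 10, heterozygous 11 and heterozygous 8 gave 15, 14 and 5 in the second (3.41%, 4.53% and 1.52%), and leaving out knockout 6 gave 16 in the last (3.65%).

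Signs near 0 were not stable in knockout against wild type. Snora31 was at -0.029 with TMM scaling, -0.042 with no sex term, -0.033 with limma-voom and -0.038 with the depth term, and ranged from -0.10 to 0.11 when 1 library was left out. Snord65 was at -0.024 with TMM scaling, -0.00087 with no sex term and -0.10 with the depth term, and ranged from -0.087 to 0.19. Snora23 ranged from -0.059 to 0.16. Of the 18 fold changes recomputed, those of the 8 most-read members and of the members with the smallest p, the rest kept their sign in the settings run. Other Scarna and list genes were not recomputed. The planned edgeR test on recovered reads was not run. No paired analysis was possible because the genotypes share no library numbers. Depth limits members under 50 reads, whose median standard error was 0.58.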
